A study of Mus musculus with 26 samples.

Results

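MED1 occupancy was described from the 4 MED1 ChIP-seq libraries of mouse 3T3-L1 adipocytes, 2 untreated and 2 after rosiglitazone, out of 26 samples in the series. Each library came as a list of 200 bp peak windows on build mm8 with a score set by the authors. Windows of the 4 lists that overlapped by at least 1 bp were joined into 15759 MED1 sites, and the 15 peak lists of the whole series formed 67815 sites by the same rule. A site was called shared when all 4 lists held it (1236 sites), gained when it was in the 2 rosiglitazone lists and in no untreated list (743), and lost in the opposite case (226). The rosiglitazone lists were longer, and with every list at the 4656 strongest peaks of its own, 1081 sites were shared, 454 gained and 298 lost. Another 934 sites were missing from 1 untreated list only and 488 from 1 rosiglitazone list only. The rest were in both replicate 1 lists only (1280), both replicate 2 lists only (465), 1 list of each treatment with unlike replicate numbers (192 and 252), or a single list (9943).

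3T3-L1 is a mouse fibroblast line that becomes fat cells in culture, here after induction with dexamethasone, insulin and 3-isobutyl-1-methylxanthine, which both groups received. The untreated group had no rosiglitazone, and the labels do not say whether it received the solvent. The treated group (rosi) received 1 µM rosiglitazone in DMSO as mature adipocytes. The labels give no treatment time for the MED1 libraries, although peak names inside the second rosi list carry the word 1h, and they do not say that replicates were separate cultures. Both replicate 1 lists carry peak names that end in B, unlike the replicate 2 lists, which may mark 2 batches. That the cells were adipocytes rests on the labels, since lists of windows with no gene names could not be set against marker genes.

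MED1 is a subunit of Mediator, the complex that links DNA-bound factors to RNA polymerase II. It contains the motifs through which ligand-bound nuclear receptors contact Mediator. Rosiglitazone is an agonist of PPARγ, the nuclear receptor that drives the fat cell program, and agonist-bound receptors exchange corepressors such as NCOR for coactivators such as CBP, p300 and Mediator. CBP and p300 are histone acetyltransferases. The other mapped proteins are leucine zipper factors: CEBPa and CEBPb act in fat cell differentiation, FOSL2 and JUND form AP-1 dimers, and ATF2 can pair with AP-1 members.

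The lists held 5660 and 4656 peaks in untreated cells and 8069 and 7104 after rosiglitazone. The means were 5158 ± 710 and 7586 ± 682 (SD, n = 2), and the exact permutation test (two-sided) gave p = 0.3333, the smallest that 2 lists against 2 can give. Lowest scores were 1.05, 1.04, 1.02 and 1.43 and highest scores 19.98, 18, 25.68 and 25.74, in the order untreated 1, untreated 2, rosi 1, rosi 2. Read depth is unknown. Shared sites took only 120, 89, 151 and 71 distinct scores, so many sites tied in rank, most of all in the second rosi list. A score was read only as a rank within its own list.

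The first comparison asked whether rosiglitazone reordered MED1 among the sites that it occupied in all 4 lists. These sites were the stronger ones of each list, and the order among them was partly kept and partly rearranged. Each site was given its rank among the 1236 shared sites in each list, from 0 for the lowest score to 100 for the highest. Ranks are relative, so sites that ranked higher are balanced by sites that ranked lower, and a rise of MED1 at all sites at once would not appear. Shared sites had a median score of 2.55 and 2.27 in the untreated lists and 3.67 and 4.29 in the rosi lists. Within the whole lists they stood at a median percentile of 78.9 in both untreated lists and of 86.9 and 86.2 in the rosi lists. Gained sites stood lower, at 56.3 and 56.5 in the rosi lists, and lost sites lower still, at 41.9 and 43.4 in the untreated lists. The summits of 1 shared site lay close together, with window centres a median of 31 to 36 bp apart between any 2 lists.

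The rank difference of a site was the mean of its 2 rosi ranks minus the mean of its 2 untreated ranks. It ran from -55.5 to 62.7 percentile points, with quartiles of -12 and 11.4. At 331 sites it was over 20 points in size, 162 of them upward and 169 downward. Both rosi ranks lay above both untreated ranks at 242 sites (19.6% of shared sites) and below both at 237 sites (19.2%). This balance belongs to ranks among shared sites: by percentile in the whole list, 398 sites were above and 125 below. A whole-list percentile depends on list length, and the rosi lists were longer, so those counts do not measure a rise of MED1. With any 1 list left out, 3 lists separate the treatments more easily. Then 489 to 605 sites were above and 478 to 614 below, out of 1376 to 1794 sites held by all 3 lists. The same count over all 4 lists by replicate number was larger: both replicate 2 ranks lay above both replicate 1 ranks at 289 sites (23.4%) and below at 273 (22.1%). By limma, fitted to normal scores of the ranks at all 1236 sites, 0 sites were higher (0%) and 0 were lower (0%) after rosiglitazone at an adjusted p of 0.05. The smallest Benjamini-Hochberg adjusted p was 0.657, and 87 sites had an unadjusted p under 0.05. Such p-values measure the spread between these lists, which may be technical. This fit left out the replicate number. With the replicate number as a block some sites were called, as given under how the results depend on the processing.

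Lists of the same replicate number ranked the shared sites more alike than lists of the same treatment. Across the 1236 sites, the Spearman correlation was 0.738 between untreated 1 and rosi 1 and 0.702 between untreated 2 and rosi 2. It was 0.665 between the 2 rosi lists and 0.596 between the 2 untreated lists. The pairs that differed in both treatment and replicate number were the least alike, at 0.512 and 0.510. The strongest sites did not show this order. Of the 100 highest sites of each list, 52 and 56 were the same within replicate 1 and 2, against 49 in both untreated and 58 in both rosi lists. Of the 50 highest, 24 and 22 were the same within replicate 1 and 2, against 27 and 25 within the untreated and the rosi lists. Sites share libraries and depth, so these values are descriptions and carry no p.

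Within the replicate numbers, sites moved in a related way. Taking rosi minus untreated within replicate 1 and within replicate 2, which have no list in common, 808 of 1236 sites (65.4%, 95% Wilson interval 62.7 to 68.0) had the same sign. Of these, 408 ranked higher after rosiglitazone in both pairs and 400 lower in both. Pearson's r between the 2 differences was 0.427 and the Spearman correlation 0.416 across the 1236 sites. The difference between replicate numbers recurred about as often, since replicate 2 minus replicate 1 had the same sign in untreated and rosi lists at 853 sites (69.0%, 66.4 to 71.5). When lists were paired across replicate numbers, 561 sites (45.4%, 42.6 to 48.2) moved the same way. Wilson intervals cover counting error only, and neighbouring sites are not independent.

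**Figure D1:**
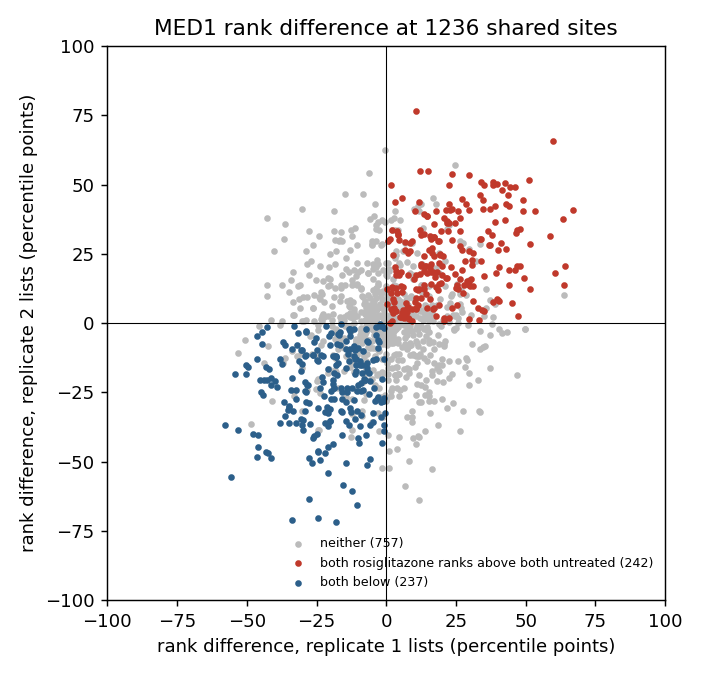
Rank difference of MED1 (rosi minus untreated, percentile points) in the replicate 1 lists (x axis) and the replicate 2 lists (y axis), 1 point per shared site. The 242 sites with both rosi ranks above both untreated ranks are red and the 237 below are blue, and 808 of the 1236 sites lie in the upper right or lower left quadrant.

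The sites with the largest upward differences were chosen among those with both rosi ranks above both untreated ranks. They were of low to middle rank among shared sites in untreated cells and mostly of middle to high rank after rosiglitazone. The site at chr16:35123280-35123532 scored 1.50 and 1.52 in the untreated lists and 5.54 and 7.63 in the rosi lists. Its ranks were 13.2 and 17.1 before and 73.0 and 82.7 after, a difference of 62.7 points (limma unadjusted p = 0.00295, adjusted p = 0.657). This site moved by about as much in both replicate numbers, and it was listed for CBP only after rosiglitazone. At chr8:42511658-42511883 the ranks were 2.14 and 30.0 in untreated cells and 69.2 and 71.0 after rosiglitazone, and p300 was listed there only after treatment. At chr7:89915798-89916037 they were 15.8 and 42.0 before and 66.8 and 93.7 after. This site was held by all 11 lists of the other proteins, as were 3 more of the 10 sites. All 5 factors were listed at 20.2% of the 242 sites above, and the share held by all 11 lists was not counted.

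The other 7 of these 10 sites ranked 2.99 to 49.6 in untreated cells and 34.5 to 95.4 after rosiglitazone. The highest after treatment was chr5:99629071-99629377, at 42.2 and 46.2 before and 88.4 and 95.4 after, with scores of 2.33, 2.18, 7.93 and 11.68. A pair of them were decided more by replicate 1 than by replicate 2. The site at chr7:132537549-132537929 went from 23.6 to 87.1 in replicate 1 and from 9.87 to 47.3 in replicate 2. The site at chr7:112287095-112287421 went from 33.7 to 92.4 and from 2.99 to 34.5, so its second rosi rank was close to its first untreated rank. The remaining 4 were at chr8:129738295-129738549, chr14:75551646-75551920, chr1:135746456-135746747 and chr3:51281880-51282192, where the differences lay between 46.5 and 46.9 points. Over the 10 sites the limma unadjusted p ran from 0.00295 to 0.0381 and the adjusted p was 0.657 at each. The unadjusted p belongs to sites picked by the size of that same difference.

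The sites with the largest downward differences were chosen among those with both rosi ranks below both untreated ranks. They were mostly of middle to high rank in untreated cells. The site at chr16:25776189-25776411 scored 4.13 and 2.65 in the untreated lists and 2.30 and 1.91 in the rosi lists. Its ranks were 78.1 and 60.6 before and 22.6 and 5.10 after, a difference of -55.5 points (limma unadjusted p = 0.00726, adjusted p = 0.657). A second site on the same chromosome, 12.4 kb away at chr16:25763801-25764074, was also among the 10, with ranks of 65.2 and 42.0 before and 7.40 and 5.10 after. It was listed for CBP only in untreated cells. At chr15:42160092-42160490 the ranks were 39.5 and 73.0 before and 5.74 and 1.98 after. In this site the replicate 2 lists moved by 71.0 points and the replicate 1 lists by 33.7.

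At 3 further sites the replicate 2 lists also carried most of the difference. The site at chr11:60040891-60041229 ranked 79.3 and 79.6 in untreated cells and 54.7 and 9.22 after rosiglitazone. The site at chr12:8458945-8459181 ranked 88.8 and 82.3 before and 61.3 and 18.9 after. The site at chr7:73214716-73214960 ranked 20.7 and 81.1 before and 2.79 and 9.22 after, and its first untreated rank was low already. At chr8:113708722-113708982, in contrast, both replicates moved alike, from 55.6 and 57.5 to 9.43 and 9.22. The others were chr1:71845695-71846017, chr6:39178799-39179094 and chr6:114747474-114747688, with differences of -45.9, -45.3 and -45.0 points. All 10 sites held CEBPa, CEBPb, ATF2 and JUND in untreated cells, and 7 were in all 11 lists of the other proteins. These 4 factors were common at shared sites. In that order they were at 78.1%, 80.2%, 95.4% and 76.8% of all 237 sites below. At the 757 sites neither above nor below, the shares were 67.5%, 69.5%, 91.3% and 71.9%. All 5 factors were listed at 39.2% of the 237 sites below, and the share held by all 11 lists was not counted.

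**Figure D2:**
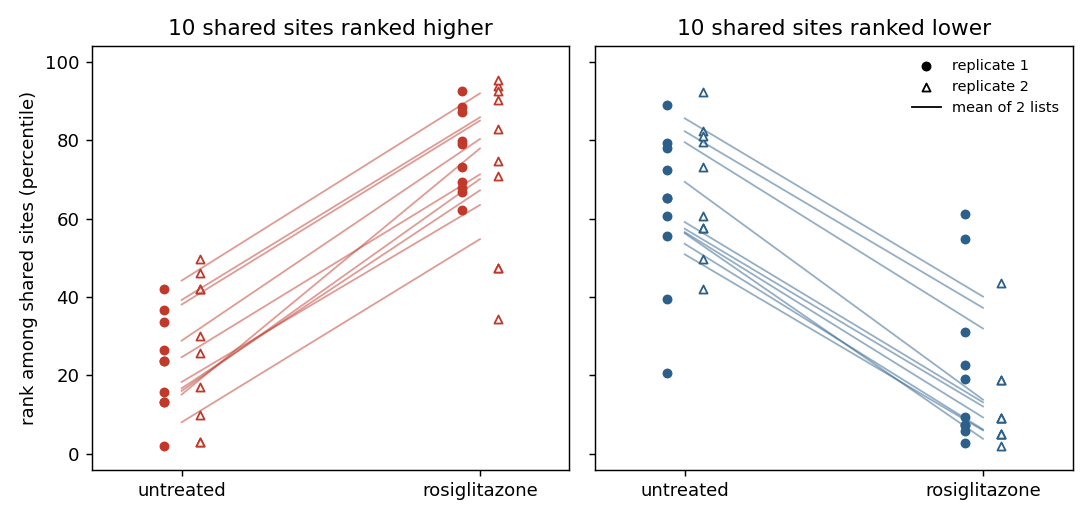
Rank among the 1236 shared sites (percentile, y axis) in untreated and rosi lists for the 10 sites with the largest upward difference (left) and the 10 with the largest downward difference (right). Filled circles are replicate 1, open triangles replicate 2 and lines join the means of 2 lists. Sites were chosen only among those where both ranks of one treatment lie on the same side of both ranks of the other.

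The 5 shared sites with the highest mean rank over the 4 lists, which were chosen with the rosi lists included, ranked at or above 97.7 in every list. Sites at the top of an untreated list were not all at the top after rosiglitazone. Of the 25 highest sites of untreated 1, 9 were among the 25 highest of rosi 1 and 6 among those of rosi 2, and of the 25 highest of untreated 2, 10 and 13 were. The highest site by mean rank was chr6:115477185-115477439, which scored 19.98 and 18 in the untreated lists and 15.87 and 15.02 in the rosi lists. It was the first of the shared sites in both untreated lists, at rank 99.96, and at 99.3 and 98.2 after rosiglitazone. The first of the shared sites was chr7:25100658-25100946 in the first rosi list, with a score of 25.68, and chr2:163684415-163684640 in the second, with 25.74. The site at chr3:10272671-10272919 ranked 98.3 and 99.4 before and 99.8 and 99.6 after, and that at chr9:50587292-50587542 was between 99.0 and 99.6 in all lists. The site on chromosome 6 belonged to a group of strong MED1 sites that ranked lower after rosiglitazone, which was chosen for description after its values were seen. Within 100 kb of it lay 5 shared sites, itself included, and both rosi ranks were below both untreated ranks at all 5. Their median untreated ranks were 99.6 and 99.7 on a scale that ends at 100, so most could hardly rank higher. At chr6:115488797-115489062 the ranks were 99.6 and 99.7 before and 67.8 and 96.0 after. At chr6:115485119-115485367 they were 99.6 and 99.9 before and 79.1 and 95.4 after. The other 2, at chr6:115386660-115386896 and chr6:115390144-115390376, had rank differences of -15.1 and -12 points. The median difference over the 5 was -20.6 points in replicate 1 and -4.49 in replicate 2, so the size differed between replicate numbers. That the direction did not differ says little, since ranks at the top of the scale can almost only fall. Within 500 kb there were 3 lost sites and 1 gained site.

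The next comparison asked where MED1 appeared after rosiglitazone relative to where it was before. Most gained sites were far from the shared sites and only a minority lay close to any earlier MED1 site. The median distance from a gained site to the nearest shared site was 271 kb, and 102 of 743 gained sites (13.7%, 11.4 to 16.4) lay within 10 kb of one. Lost sites were placed alike, with a median of 223 kb and 25 of 226 (11.1%, 7.61 to 15.8) within 10 kb. Shared sites were closer to one another, with a median of 49.4 kb to the next shared site and 372 of 1236 (30.1%, 27.6 to 32.7) within 10 kb. Sites found in both lists of 1 replicate number only gave 12.3% and 12.9%, within the interval of the gained sites, and sites of a single list gave 5.76% to 9.07%. Sites missing from just 1 of the 4 lists gave 17.2% to 18.6%. Among these classes the share within 10 kb of a shared site was higher for sites held by more lists, whatever the treatment. Without rosi replicate 1 the share of gained sites was 7.64%, and without rosi replicate 1 or 2 that of lost sites was 17.0% or 18.1%.

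With the lists as units, the share of other sites that lay close to a shared site differed between treatments by less than the spread of the rosi lists. The share within 10 kb was 11.8% and 11.6% in the untreated lists and 11.9% and 9.57% in the rosi lists. The means were 11.7% ± 0.149 and 10.7% ± 1.63 (SD, n = 2), a difference of -0.941 percentage points. The exact permutation test (two-sided) gave p = 1. Without rosi replicate 2 the difference was 0.215, and with lists of equal length it was 3.10.

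**Figure D3:**
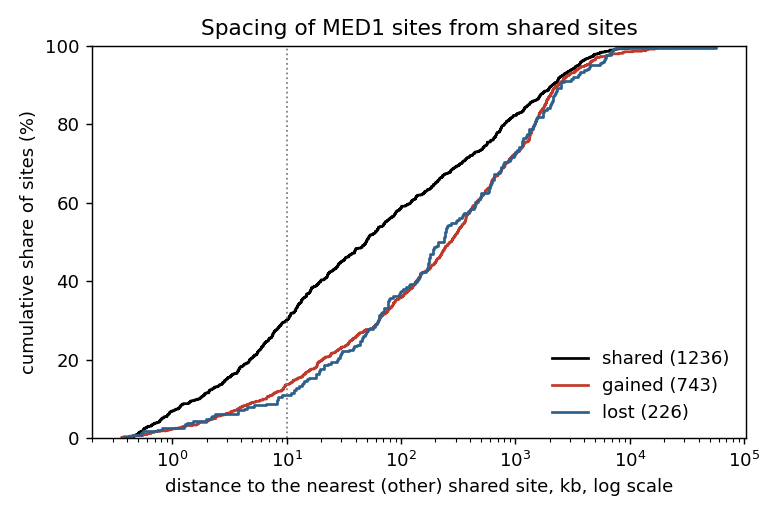
Cumulative share of MED1 sites (y axis, percent) by distance to the nearest other shared site (x axis, kb, log scale) for shared, gained and lost sites, with a dotted line at 10 kb. The curves of gained and lost sites run close together, at 13.7% and 11.1% at 10 kb, and below that of shared sites, at 30.1%.

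New sites were also measured against every earlier site, including those of 1 list. This larger set contains the shared sites, so distances could only become shorter or stay equal. A gained site lay a median of 20.5 kb from the nearest of the 8357 sites of either untreated list. Within 1 kb of such a site were 72 gained sites (9.69%, 7.77 to 12), within 10 kb 275 (37.0%, 33.6 to 40.5) and within 50 kb 500 (67.3%, 63.8 to 70.6). A lost site lay a median of 13.6 kb from the nearest of the 12249 sites of either rosi list, and 98 of 226 (43.4%, 37.1 to 49.9) were within 10 kb. These anchor sets differ in size, and with all lists at 4656 peaks the order turned, to 16.6 kb and 42.5% for gained and 22.5 kb and 33.2% for lost sites. Within replicate 1 alone, 31.9% of sites in the rosi list only lay within 10 kb of an untreated site, and within replicate 2 20.4%. Of the 275 gained sites with an untreated site within 10 kb, the nearest one was shared for 75 (27.3%), in 1 untreated list only for 60, and in both replicate 1 lists only for 30 (10.9%). It was a lost site for 1 (0.364%). Of the 8357 untreated sites, 1236 were shared and 226 lost.

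The strongest gained sites next to earlier sites were of high score. At chr2:172795635-172795855 MED1 scored 5.80 and 12.39 in the rosi lists, at list percentiles of 95 and 99.3, and the nearest untreated site was 0.302 kb away. At chr5:28371456-28371673 it scored 7.08 and 7.15, with an untreated site 0.608 kb away. The CBP and p300 ranks there were 41.4 and 44.3 points higher after rosiglitazone. At chr16:90625887-90626129 and chr13:51883661-51883963 the nearest untreated site was itself shared, 1.00 and 1.48 kb away. The site at chr19:40490228-40490582 lay 4.96 kb from an untreated site and 43.3 kb from a shared one. Scores of 6.74 and 6.91 put it at percentiles of 96.6 and 95.3. All 5 held p300 after rosiglitazone and 3 did in untreated cells, while NCOR was at all 5 in both conditions. Of all 743 gained sites, 72.4% held p300 after rosiglitazone. NCOR was at 74.8% of them in untreated cells and at 79.3% after rosiglitazone.

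Gained sites over 50 kb from any untreated site were weaker at their strongest. The highest, chr6:93289476-93289702, scored 4.01 and 5.72 (percentiles 89.0 and 92.6) and lay 66.3 kb from an untreated site. The site at chr6:100292505-100292733 lay 352 kb from any untreated MED1 site and was nonetheless held by all 11 lists of the other proteins. The site at chr4:15870074-15870278 was held by none of the 5 factors and by neither NCOR list, while its p300 rank was 71.7 points higher after treatment. The other 2 were chr4:53405918-53406211, at 57.5 kb, and chr3:116507688-116507899, at 353 kb. In all, 243 gained sites were this far from untreated sites, and their share with p300 after rosiglitazone was 77.4% (71.7 to 82.2), against 70.2% (64.5 to 75.3) of the 275 within 10 kb.

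Among lost sites, the strongest beside a rosi site was chr2:135544627-135544828, with scores of 5.26 and 2.75 and a rosi site 2.39 kb away. The others were chr6:115205661-115205864, chr2:48341971-48342178, chr6:115327862-115328139 and chr15:34317656-34317884, with rosi sites 0.825 to 2.79 kb away. Both of those on chromosome 6 lay within 500 kb of the strong group described above. The strongest lost site over 50 kb from a rosi site was chr16:77759687-77759909, with scores of 3.46 and 3.13, 79.5 kb from the nearest. In untreated cells all 5 factors were at a larger share of lost sites over 50 kb from rosi sites than within 10 kb. The order was not particular to the factors. CBP, p300 and NCOR in untreated cells were at 86.0%, 91.2% and 89.5% of far sites. Their shares of near sites were 71.4%, 74.5% and 78.6%, with overlapping intervals. For ATF2, at 87.7% (76.8 to 93.9) of far and 80.6% (71.7 to 87.2) of near sites, the intervals overlapped. They also did for FOSL2, at 52.6% (39.9 to 65.0) and 35.7% (26.9 to 45.6). CEBPa was at 64.9% (51.9 to 76.0) and 38.8% (29.7 to 48.7). CEBPb was at 71.9% (59.2 to 81.9) of the 57 far sites and 41.8% (32.6 to 51.7) of the 98 near ones, and JUND at 73.7% (61.0 to 83.4) and 49.0% (39.3 to 58.7).

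Presence and rank were then set side by side. Shared sites near a gained site tended to rank higher after rosiglitazone and those near a lost site lower. The 118 shared sites with a gained and no lost site within 10 kb had a median rank difference of 6.42 points (quartiles -5.35 and 18.9), and 76 of them (64.4%, 55.4 to 72.5) ranked higher. The 29 near a lost site only had a median of -17.2 points (quartiles -25.6 and -1.46), and 5 of them (17.2%, 7.60 to 34.5) ranked higher. The 1088 near neither had a median of -0.728, and 524 (48.2%, 45.2 to 51.1) ranked higher. Both rosi ranks were above both untreated ranks at 37.3% of the first group, 3.45% of the second and 18% of the third, beside 19.6% of all shared sites. Both were below at 12.7%, 41.4% and 19.3%, beside 19.2% of all.

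Both replicate numbers gave these directions, with medians of 5.68 and 8.21 points near gained sites and -17.4 and -9.79 near lost sites. The groups did not differ much in strength, with median mean ranks of 53.5, 52.0 and 47.5. Gained and lost calls and ranks come from the same 4 lists, though from different windows. Near gained sites the median was 4.08 and 4.20 points without rosi replicate 1 and 2. Near lost sites it was -6.90 and -9.63 without untreated replicate 1 and 2, and -6.86 without rosi replicate 2. The single shared site near both kinds had a difference of 33.5 points.

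**Figure D4:**
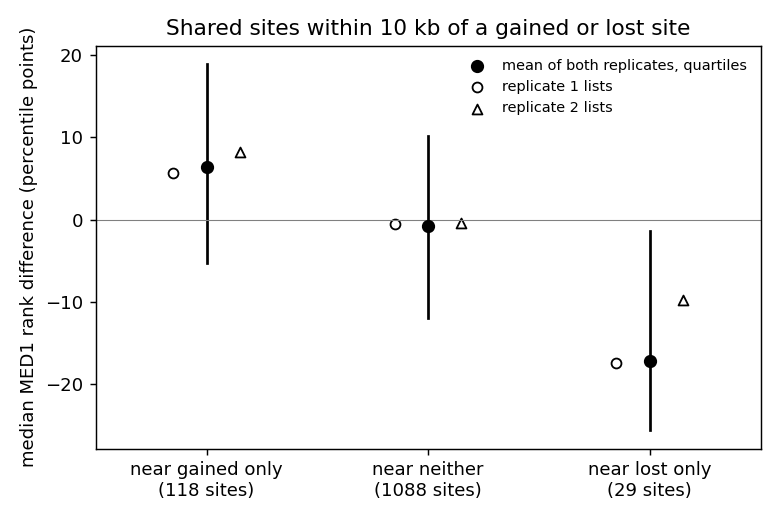
Median MED1 rank difference (y axis, percentile points) of shared sites within 10 kb of a gained site only, of neither and of a lost site only. Filled circles with lines are medians and quartiles of the mean over both replicates, open circles replicate 1 and open triangles replicate 2; the medians are 6.42, -0.728 and -17.2 points.

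Neighbouring shared sites tended to differ in the same direction at short distance. Of 211 pairs of adjacent shared sites up to 10 kb apart, 132 (62.6%, 55.9 to 68.8) had rank differences of the same sign. The share was 58.1% under 2 kb (74 pairs), 65.0% from 2 to 10 kb (137 pairs), 57.1% from 10 to 50 kb (189 pairs), 51.5% from 50 to 500 kb (266 pairs) and 49.8% beyond (550 pairs). Within replicate 1 it was 69.2% up to 10 kb, and within replicate 2 57.8% (51.1 to 64.3).

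Chaining MED1 sites at gaps of at most 10 kb gave 10313 stretches, 300 of them with 5 or more sites and the largest with 15. Gained sites were scattered: 701 stretches held 1 or more and 38 held at least 2. Lost sites lay in 222 stretches, 4 of which held at least 2, and 6 stretches held both kinds. Where a stretch had 2 or more shared sites whose groups did not overlap, all were above in 21 stretches, all below in 19, and of both kinds in 10. The stretch with most shared sites, chr8:127703505-127762413, had 13 sites of which 7 were shared and 2 gained. The first rosi list held all 13 of these sites, and untreated 1, untreated 2 and rosi 2 held 10, 7 and 10. Its median rank difference was -5.02 points, and 3 of 7 shared sites ranked higher. A stretch on chromosome 9, chr9:102582280-102622014, had 6 shared sites, of which 5 ranked higher, with a median of 17.3 points and 4 with both rosi ranks above both untreated ranks. In chr16:23955343-23992810, 4 of 5 shared sites ranked higher, with a median of 13.2 points.

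The largest groups of gained sites had 3 each. The stretch chr4:144214814-144248041 had 10 MED1 sites over 33.2 kb, of which untreated lists held 6 and 2 and rosi lists 8 and 6. Its 2 shared sites both ranked higher, with a median of 10.8 points. In chr9:60812350-60838970, 2 and 1 of 7 sites were in the untreated lists and 5 and 6 in the rosi lists, and the shared site had a difference of 26.1 points. The third was chr15:12414747-12435500, whose 2 shared sites moved in opposite directions. The stretches with most lost sites had 2 each: chr2:72832186-72850149, with 3 and 2 sites in the untreated lists and 0 and 1 in the rosi lists, and chr13:23562419-23593633, with 5 and 3 before and 1 and 2 after.

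The last comparison asked what CBP, p300 and NCOR did at the sites where MED1 was reordered. Rank differences of the 2 acetyltransferases went with those of MED1, while those of NCOR had a weak relation whose sign turned when 1 MED1 list was left out. CBP, p300 and NCOR each had 1 list per condition, so the values below describe libraries and have no replicate check. Their ranks were taken among all sites in both lists of the protein, 7891 for CBP, 9373 for p300 and 18899 for NCOR. Across 1151 shared MED1 sites, the Spearman correlation between the p300 and MED1 rank differences was 0.382, and it was 0.378 and 0.281 for MED1 replicate 1 and 2 alone. For CBP it was 0.307 across 1065 sites, and 0.304 and 0.220 by replicate number. The difference between MED1 replicates within 1 treatment, which shares no treatment contrast, gave 0.0434 and -0.0214 with p300 and 0.0715 and 0.0169 with CBP. For NCOR it was -0.102 across 1159 sites. Without untreated replicate 2 it was 0.0121 and without rosi replicate 1 0.000771, and the replicate contrasts gave 0.105 and 0.146, as large as the treatment value.

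At sites with both rosi MED1 ranks above both untreated ranks, the median p300 difference was 7.78 points and 184 of 222 measured sites (82.9%) had a higher p300 rank. At sites below, it was -1.25 points and 75 of 216 sites (34.7%) were higher. CBP was 8.02 points higher at the median above (153 of 195 sites higher, 78.5%) and 0.0570 points below (107 of 206, 51.9%). At the sites of neither kind the median difference was 0.896 points for p300 (404 of 713 sites higher, 56.7%) and 2.63 for CBP (433 of 664, 65.2%), between the values at the sites above and below for both proteins. NCOR medians were -0.782 and 0.0582 points. With shared sites in 5 equal groups by MED1 rank difference, the p300 median went from -1.71 in the lowest group to 0.694 in the middle and 9.19 in the highest, and CBP from -0.0570 to 2.73 and 9.20. At the 10 sites with the largest upward MED1 differences p300 ranked higher at 8 of 9 measured sites and CBP at 9 of 9. At the 10 with the largest downward differences p300 ranked lower at 8 of 10 and CBP at 4 of 9.

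The same order held at sites that MED1 gained or lost. Where both p300 lists held a gained site, the median p300 rank was 13.3 points higher after rosiglitazone (353 sites, 76.8% higher), and at lost sites the median difference was -9.84 points (136 sites, 25% higher). CBP medians were 8.48 at 254 gained sites and -5.51 at 120 lost sites. NCOR medians were -0.365 at 516 gained sites and 2.58 at 166 lost sites. The p300 and CBP lists did not enter the MED1 calls, but whether these libraries shared cultures with the MED1 libraries is not known. Sites in only 1 list of a protein have no rank difference and are not counted.

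**Figure D5:**
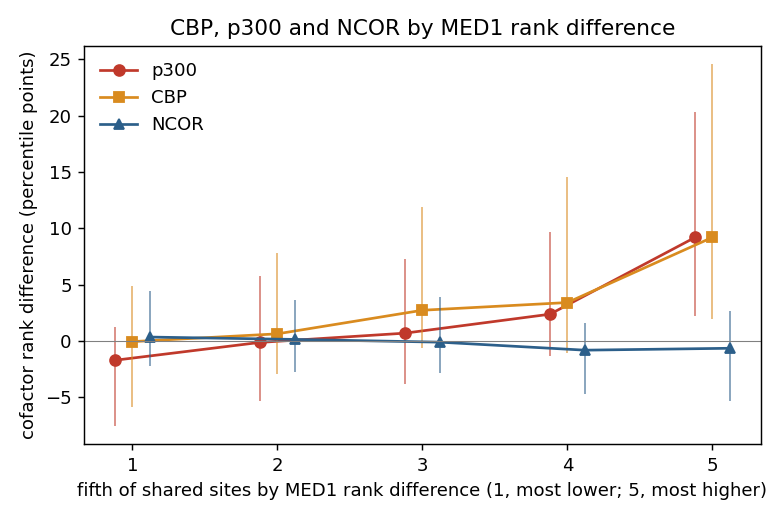
Median rank difference of p300, CBP and NCOR (y axis, percentile points, lines are quartiles) in 5 equal groups of shared MED1 sites ordered by MED1 rank difference (x axis). The p300 and CBP medians are highest, at 9.19 and 9.20, where MED1 ranked most higher, while NCOR medians stay within 1 point of 0.

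Transcription factors mapped in untreated cells were at fewer of the sites where MED1 ranked higher. CEBPa was at 61.6% (55.3 to 67.5) of the 242 sites above and 78.1% (72.4 to 82.9) of the 237 below. CEBPb was at 66.1% (59.9 to 71.8) and 80.2% (74.6 to 84.8). The AP-1 subunits and ATF2 showed the same order. JUND was at 62.4% (56.1 to 68.3) and 76.8% (71.0 to 81.7), FOSL2 at 36.8% (30.9 to 43.0) and 53.6% (47.2 to 59.8), and ATF2 at 86.0% (81.0 to 89.8) and 95.4% (91.9 to 97.4). All 5 factors were listed at 20.2% of sites above and 39.2% of sites below, with 26.0% at the 757 sites of neither kind. The mean number of factors was 3.13, 3.84 and 3.45. Both kinds of site had a similar mean rank over the 4 MED1 lists, with medians of 51.7 above and 49.6 below. All 5 factors kept the order in the upper and the lower 50% of shared sites by this mean rank. That split was made after the data were seen. By definition sites above ranked lower in the untreated lists than after rosiglitazone, and sites below ranked higher. Neither comparison therefore matched the untreated MED1 rank, and its part in the factor shares was not tested. CBP in untreated cells was at 88.0% (83.3 to 91.5) of sites above and 96.6% (93.5 to 98.3) of sites below, while after rosiglitazone it was at 88.8% and 87.8%.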

How the data were processed

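MED1, CBP, p300, NCOR and transcription factor ChIP-seq libraries were used as deposited: 1 list per library of 200 bp windows, each with a score from the authors. The build was mm8 and the tools included HOMER, bedtools and Bowtie, per the submitters' processing notes. Their versions, and the peak thresholds, are not given in the sources used. Positions are mm8, counted from 1. No genome or annotation of that build was used, so no gene names or sequences are given. GRO-seq and input samples (11) were not analysed here.

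Windows with centres at most 199 bp apart were chained into sites, and a site took the highest score of each list. Distances run between centres. Tied scores shared a mean rank. Normal scores of the ranks at all shared sites were tested with limma 3.58.1 (R 4.3.3), two-sided, with Benjamini-Hochberg adjustment at 0.05. List means were compared by exact permutation tests, and shares carry 95% Wilson intervals. Other values used Python 3.11.15, numpy 2.4.6, pandas 2.3.3 and scipy 1.17.1. The code was tested on simulated data. Named sites followed a rule: the 10 sites with the largest difference in each direction among those whose groups do not overlap, the 5 highest shared sites, the 5 highest gained and lost sites near (10 kb) and far (over 50 kb), and the 3 stretches with most sites of each class. Members, lists and rules were chosen with earlier results of these data known. Alternatives were another overlap, the upper 50% of each list, equal length, other distances and rank scales, each list left out and the replicate number as a block.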

Additional observations from a re-analysis of the deposited data

How the results depend on the processing

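Limits come from list length, coarse scores and 2 lists per condition, and read depth is unknown. The cause of each shift below was not tested. With the replicate number as a block (replicate block), limma called 103 of 1236 shared sites (56 higher and 47 lower) in place of 0. The labels do not say that the numbers pair the lists, and the check rests on only 2 pairs: replicate 2 minus 1 correlated between untreated and rosi lists across the 1236 sites (Pearson's r 0.567). Every other alternative run for this test also called 0 sites. Ranked in the whole list in place of among shared sites, 398 sites were above and 125 below, 69.3% moved alike in both pairs, 73.0% of adjacent sites within 10 kb moved alike, and the NCOR correlation was -0.0733. In the upper 50% of each list 158 of 816 shared sites were above, beside 242 of 1236 with whole lists. There the median near gained sites was 8.88 points and the NCOR correlation was -0.157.

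With lists of equal length, 18.5% of gained sites were within 10 kb of a shared site, 42.5% of gained sites near untreated and 33.2% of lost sites near rosi sites, the median near gained sites was 8.81 points, and the difference in share by list turned to 3.10 percentage points. At 5 kb and 50 kb, 9.15% and 27.7% of gained sites were near a shared site, and at 50 kb 27.0% of lost sites were. Medians near gained sites were 8.52 and 3.38 points and near lost sites -9.10 and -11.1. Within replicate 1 and 2, 31.9% and 20.4% of gained sites were near untreated sites, and within replicate 2 30.0% of lost sites near rosi sites.

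Leaving out 1 list changes the classes, since 3 lists then define them. Sites above numbered 489 to 605 and sites below 478 to 614, out of 1376 to 1794 sites held by all 3 lists. Gained sites near a shared site came to 7.64% to 18.9%, lost sites to 10.2% to 18.1%, gained sites near untreated sites to 25.6% to 37.9% and lost sites near rosi sites to 35.3% to 46.8%. Adjacent sites moved alike in 60.8% to 71.0%. The difference in share by list was -2.52 to 0.215, positive without rosi replicate 2. Medians were 4.08 to 6.96 points near gained and -11.8 to -6.86 near lost sites. The Spearman correlation with the MED1 rank difference was 0.205 to 0.277 for CBP, 0.273 to 0.382 for p300 and -0.117 to 0.0121 for NCOR, which was positive without untreated replicate 2 (0.0121) or rosi replicate 1 (0.000771).

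With shared sites split into the upper and lower 50% by mean rank, an alternative chosen after seeing the data, 4 differences in share between sites above and below turned sign: CBP after rosiglitazone in the lower 50% (-0.954 percentage points), p300 in untreated cells in the upper 50% (0.246), NCOR in untreated cells in the lower 50% (-1.73) and NCOR after rosiglitazone in the upper 50% (0.888).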

Other observations

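The balance of MED1 sites that ranked higher and lower differed between chromosomes, described here as counts with no test. Over all shared sites 19.6% were above and 19.2% below. On chromosome 6, 16 of 117 shared sites were above and 38 below. Beyond 500 kb from its strongest site, 16 of 110 were above and 33 below, with a median rank difference of -2.64 points, so most of that excess lay elsewhere on the chromosome. On chromosome 3, 16 of 50 were above and 5 below, and on chromosome 10, 12 of 40 were above and 3 below. Chromosome 15 had 9 above and 19 below of 51, and chromosome 14 had the lowest median difference, -10.3 points over 32 sites. These chromosomes were named for uneven counts or a low median. Others were near balance, such as chromosome 12, with 7 above and 7 below of 40.

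Gained sites within 10 kb of a shared site and those farther away were set side by side for what else they held. In untreated cells CBP was at 39.2% (30.3 to 48.9) of 102 near sites and 49.1% (45.3 to 53.0) of 641 others, p300 at 48.0% (38.6 to 57.6) and 57.1% (53.2 to 60.9), and JUND at 25.5% (18.0 to 34.7) and 32.6% (29.1 to 36.3). The near sites stood higher in the rosi lists, at a median percentile of 72.5 against 53.3. The share with p300 after rosiglitazone was 70.6% (61.1 to 78.6) of near sites and 72.7% (69.1 to 76.0) of the others, and the share with CEBPa was 31.4% (23.2 to 40.9) and 30.0% (26.5 to 33.6). ATF2 was at 43.1% (34.0 to 52.8) and 53.0% (49.2 to 56.9).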
